A study of Mus musculus with 8 samples.

Results

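A group of 10 genes, of the 31053 in the deposited matrices, was followed across 8 single-cell RNA-seq libraries. Most belong to the negative feedback on the ERK pathway, while Etv4 and Etv5 are genes whose transcription follows ERK activity. The 10 were chosen by symbol, with earlier results of these data known. They are the phosphatases Dusp4, Dusp5 and Dusp6, the Sprouty genes Spry1, Spry2 and Spry4, the Spred genes Spred1 and Spred2, and the transcription factors Etv4 and Etv5. The cells are SN4741, a mouse line labelled as neural precursor cells with a WT genotype, in which a tyrosine hydroxylase promoter drives a heat-sensitive SV40 T antigen in every group. There were 8 libraries, of which 4 came from cells kept at 37 °C in 10% fetal bovine serum, and 4 from cells moved to 39 °C and 0.5% serum for 48 hours. Temperature and serum changed together, so their parts cannot be told apart. The line is described as clonal, and the study's karyotyping found it polyploid and variable from cell to cell.

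Growth factor receptors switch on RAS, which activates the kinases RAF, MEK and ERK in turn, and active ERK drives transcription of its own brakes. DUSP phosphatases remove the activating phosphates from ERK, Sprouty and Spred proteins act upstream on the step from receptor to RAF, and Etv4 and Etv5 are ETS transcription factors whose transcription follows ERK activity. The RNA of these genes is for that reason often used as a readout of the pathway, and in the developing nervous system they are best known as targets of FGF signalling.

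The 8 libraries held 18351 cells after filtering, 985 to 3494 per library, with 17166686 to 29633818 unique molecular identifiers (UMIs, counted molecules) per library. The median UMI count per cell ran from 6676 to 16665, and 39 °C replicate 1 had both the fewest cells and the deepest. Pairs of libraries shared 0 to 5 cell barcodes. The labels do not say whether replicates were separate cultures, so the p-values measure at most the spread between these libraries. Of 5 neural precursor markers 4 were above 1 CPM (UMIs of a gene per 1000000 UMIs) in every library, with Pax6 at 0.0583 CPM or below. The 5 summed to 5748 to 6109 CPM at 37 °C and 5367 to 6088 CPM at 39 °C, mostly Vim. Nes was lower at 39 °C, running from 430 to 538 CPM at 37 °C and from 105 to 117 CPM at 39 °C. Sox2 (52.0 to 57.2, then 72.6 to 80.7 CPM) and Hes1 (96.0 to 148, then 163 to 285 CPM) were higher at 39 °C. The dopaminergic markers summed to at most 0.990 CPM, with 3 UMIs of Th at 37 °C and 4 at 39 °C. Cells assigned to G1 made up 20.6% to 28.7% of a library at 37 °C and 82.5% to 85.4% at 39 °C. The summed neuron markers ran from 150 to 176 CPM at 37 °C and from 71.5 to 88.7 CPM at 39 °C, carried by Stmn2 and Map2, and the fibroblast or mesenchyme markers from 1667 to 1744 and from 750 to 783 CPM, carried by Col1a1 and Col1a2. Their part in the results was not tested. Astrocyte markers summed to 14.3 to 21.0 CPM over all libraries, oligodendrocyte markers to 2.97 to 5.45 with Olig2 and Mog at 0, and microglial and endothelial markers to at most 2.27 with Cdh5 at 0.

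The promoters of 4 genes are shown because they hold an octamer bound by Capicua (Cic), the repressor that ERK removes from Etv4, Etv5 and related genes. The windows run from 250 bases before to 50 bases after the annotated start, from RefSeq on GRCm38.p6, and 7 of the 10 genes had a window (8 windows, since Etv5 has 2 starts). Dusp4, Spry4 and Etv4 were not in the table. The octamers searched on both strands were TGAATGAA, TGAATGAG, TGAATGGA, TGAATGGG, TCAATGAA, TCAATGAG, TCAATGGA and TCAATGGG. Capitals mark each match as read on the printed strand, so a match on the other strand appears as its reverse complement.
Dusp6, chr10:99262981-99263280, + strand: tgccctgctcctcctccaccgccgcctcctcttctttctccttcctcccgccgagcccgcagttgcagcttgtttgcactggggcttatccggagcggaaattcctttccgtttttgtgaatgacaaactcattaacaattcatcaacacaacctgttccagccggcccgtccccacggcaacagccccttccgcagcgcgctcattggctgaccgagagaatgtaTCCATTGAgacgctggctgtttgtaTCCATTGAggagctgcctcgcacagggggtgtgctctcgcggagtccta
Spry2, chr14:105896770-105897069, - strand: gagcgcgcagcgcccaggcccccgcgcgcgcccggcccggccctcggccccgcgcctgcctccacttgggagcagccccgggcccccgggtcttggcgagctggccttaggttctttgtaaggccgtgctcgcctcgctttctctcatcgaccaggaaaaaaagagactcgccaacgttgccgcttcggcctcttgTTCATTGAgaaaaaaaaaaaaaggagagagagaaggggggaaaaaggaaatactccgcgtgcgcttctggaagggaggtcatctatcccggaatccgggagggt
Etv5 second start, chr16:22438319-22438618, - strand: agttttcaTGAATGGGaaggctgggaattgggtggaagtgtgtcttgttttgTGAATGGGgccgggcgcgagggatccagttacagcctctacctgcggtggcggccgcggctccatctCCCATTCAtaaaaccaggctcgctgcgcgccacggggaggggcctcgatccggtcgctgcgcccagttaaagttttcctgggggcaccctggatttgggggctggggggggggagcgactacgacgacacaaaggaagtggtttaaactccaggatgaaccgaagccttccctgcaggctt
Dusp5, chr19:53528895-53529194, + strand: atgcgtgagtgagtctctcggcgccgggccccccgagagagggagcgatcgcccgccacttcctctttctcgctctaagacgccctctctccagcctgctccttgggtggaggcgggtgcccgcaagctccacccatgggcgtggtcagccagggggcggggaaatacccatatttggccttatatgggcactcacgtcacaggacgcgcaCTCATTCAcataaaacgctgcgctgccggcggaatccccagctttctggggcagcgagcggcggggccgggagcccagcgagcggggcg

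Dusp6 held 2 matches, at bases -24 and 1 from its start, the second Etv5 start held 3, and Spry2 and Dusp5 held 1 each. At least 1 match occurred in 7.02% of the 32851 windows searched, 2 or more in 0.444% and 3 or more in 0.0791%. The windows searched did not cover every chromosome. The windows of Spry1, Spred1, Spred2 and the first Etv5 start held none of these letters. The ETS core CCGGAA, also searched on both strands, was in the Spry2 window alone of the 8 and in 14.9% of the windows searched. Both motifs were settled on after these sequences had been read, and a match is a description, not a site or a cause.

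Of these genes, 8 were higher at 39 °C, from 1.58-fold for Spred1 to 4.69-fold for Etv4, and Dusp5 was lower. Counts were summed per library and compared by edgeR's quasi-likelihood test with Benjamini-Hochberg adjustment over all 15810 genes tested, a gene passing at an adjusted p under 0.05. Of the 10 genes 9 were tested, of which 8 passed as higher and 1 as lower. Over all tested genes 31.5% passed as higher and 30.5% as lower. For 8 of the 9 every 39 °C library lay above every 37 °C library, which held for 28.7% of all tested genes. The median log2 fold change of the 9 was 1.16, beside 0.02 over all tested genes. Under a stricter rule, an adjusted p under 0.01 with a log2 fold change over 1.5, 3 of the 9 passed as higher (Dusp4, Etv4 and Etv5), beside 2.21% of tested genes. In such sums a larger share of expressing cells and more RNA per cell cannot be told apart.

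**Figure D1:**
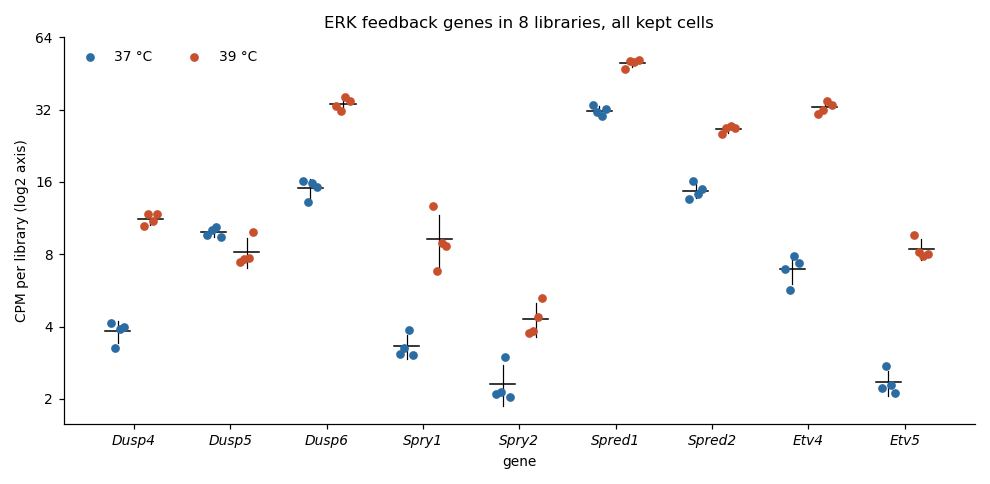
CPM per library (log2 axis) of the 9 tested genes at 37 °C (blue) and 39 °C (orange); each point is a library, the horizontal line the mean and the vertical line the SD of 4 libraries. The points of both temperatures separate for every gene but Dusp5, where 39 °C replicate 4 (9.87 CPM) sits among the 37 °C libraries.

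Among the phosphatases, Dusp4, which acts on ERK and other MAP kinases in the nucleus (chromosome 8, 34807297 to 34819894 on GRCm38), was at 4.15, 3.26, 3.89 and 3.97 CPM in the 37 °C libraries and at 10.5, 11.8, 11.0 and 11.8 CPM at 39 °C. The groups did not overlap, and the log2 fold change was 1.56 ± 0.09 (SE, edgeR adjusted p = 7.93e-12). Dusp6, a cytoplasmic phosphatase with a strong preference for ERK (chromosome 10, 99263231 to 99267489), was at 16.1, 13.1, 15.8 and 15.3 CPM and then at 33.1, 31.5, 36.1 and 34.6 CPM. Its 39 °C libraries all lay well above the 37 °C ones, and the log2 fold change was 1.16 ± 0.06 (edgeR adjusted p = 7.37e-12).

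Dusp5, an ERK phosphatase of the nucleus (chromosome 19, 53529109 to 53542431), went the other way, at 9.60, 10.1, 10.3 and 9.44 CPM at 37 °C and 7.43, 7.65, 7.68 and 9.87 CPM at 39 °C. In 3 of the 39 °C libraries the level was below all 37 °C libraries, while replicate 4 lay within their range. The log2 fold change was -0.27 ± 0.09 (edgeR adjusted p = 0.0113). Without 39 °C replicate 4 it was -0.38, and with every cell thinned to 2000 UMIs it was -0.26 and no longer passed (edgeR adjusted p = 0.167).

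The Sprouty genes differed in how much they were detected. Spry1, an inhibitor of receptor signalling to RAS (chromosome 3, 37639947 to 37644598), was at 3.09, 3.26, 3.86 and 3.05 CPM at 37 °C and at 12.7, 6.81, 8.89 and 8.67 CPM at 39 °C. All 39 °C libraries were higher, with replicate 1 the highest and replicate 2 the lowest of them. The log2 fold change was 1.45 ± 0.15 (edgeR adjusted p = 5.72e-08). Spry2, its close relative (chromosome 14, 105891947 to 105896819), was at 2.09, 2.13, 2.98 and 2.04 CPM and then at 3.74, 3.82, 4.39 and 5.24 CPM. These groups did not overlap either, and the log2 fold change was 0.91 ± 0.14 (edgeR adjusted p = 1.60e-05). Spry4 was too sparse to test, with 2 UMIs in all kept cells at each temperature. These gave 0.0177 CPM at 37 °C (exact Poisson 95% interval 0.00214 to 0.0638) and 0.0206 CPM at 39 °C (0.00249 to 0.0742), and the intervals cover counting error only.

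The Spred genes had the smallest rises in this fit. Spred1, which recruits the RAS inhibitor neurofibromin to the membrane (chromosome 2, 117121374 to 117182279), was at 33.4, 31.3, 30.04 and 32.1 CPM at 37 °C and at 47.3, 50.8, 50.6 and 51.5 CPM at 39 °C. The spread within each group was small against the gap between them, and the log2 fold change was 0.66 ± 0.05 (edgeR adjusted p = 5.44e-10). Spred2, of the same family (chromosome 11, 19924375 to 20024026), was at 13.6, 16.1, 14.2 and 14.9 CPM and then at 25.2, 26.8, 27.4 and 26.9 CPM. Here too every 39 °C library was higher, by 0.86 ± 0.06 on the log2 scale (edgeR adjusted p = 1.56e-10).

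The ETS factors changed most. Etv4 (chromosome 11, 101769742 to 101785371) was at 6.92, 5.70, 7.89 and 7.37 CPM at 37 °C and at 30.6, 32.0, 34.6 and 33.5 CPM at 39 °C. Its rise of 2.23 ± 0.08 on the log2 scale (edgeR adjusted p = 5.81e-15) stood at the 99.2 percentile of all tested genes. Etv5 (chromosome 16, 22381309 to 22439719) was at 2.23, 2.75, 2.28 and 2.11 CPM and then at 9.65, 8.18, 7.89 and 7.98 CPM. It rose by 1.84 ± 0.11 on that scale (edgeR adjusted p = 1.52e-11), and neither gene's groups overlapped.

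Because phase shares moved with temperature, cells assigned to G1 were next compared alone. The same 8 genes passed as higher and none as lower, of 9 tested, beside 24.8% and 22.4% of the 14712 genes tested. The groups of all 8 stayed apart, which held for 23.7% of tested genes. Dusp5 gave a log2 fold change of -0.25 ± 0.14 in G1 cells (edgeR adjusted p = 0.164). It passed without 37 °C replicate 2 (-0.36), without 39 °C replicate 4 (-0.37) or with phases scored in each library on its own (-0.35).

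Etv4 again had the largest change, a log2 fold change of 2.32 ± 0.10, from 7.24, 5.02, 8.62 and 6.03 CPM in 37 °C G1 cells to 31.6, 33.5, 34.8 and 35.4 CPM in 39 °C G1 cells. It was followed by Spry1 at 1.45 ± 0.20, Etv5 at 1.33 ± 0.17, Dusp4 at 1.25 ± 0.16 and Dusp6 at 1.15 ± 0.08. Spry2 changed by 0.78 ± 0.21, Spred2 by 0.67 ± 0.07 and Spred1 by 0.48 ± 0.06 on the log2 scale. With cells thinned to 2000 UMIs Spry2 no longer passed in G1 cells (0.61, edgeR adjusted p = 0.333). The 37 °C values rest on few molecules for some genes, with 82 UMIs of Etv5, 87 of Spry1 and 61 of Spry2 over the 4 libraries.

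**Figure D2:**
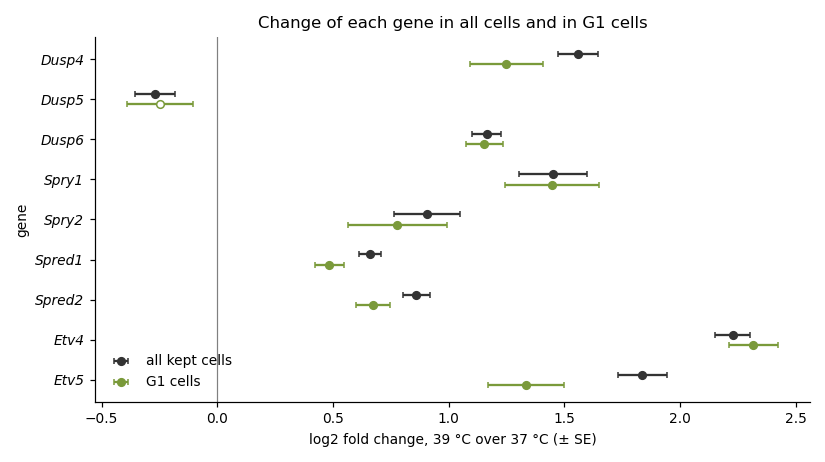
Log2 fold change of 39 °C over 37 °C for each tested gene in all kept cells (dark) and in G1 cells (green), with bars of 1 SE; filled points passed at an adjusted p under 0.05. Etv4 lies furthest right in both (2.23 and 2.32), and Dusp5 in G1 cells (-0.25) is the open point.

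Within a library, cells in S or G2M phase (cycling cells) were then set against G1 cells of the same library, with the library as a block. The p-values of this fit match those of a normal distribution for the log2 difference over its SE. A gene's own spread over the libraries therefore hardly entered them. At 37 °C, 4 of the 9 genes were lower in cycling cells and none higher, beside 18.4% and 25.0% of the 14745 genes tested. Etv5 changed most, from 2.73, 5.20, 3.08 and 2.91 CPM in G1 cells to 2.13, 2.15, 2.12 and 1.96 CPM in cycling cells of the same 4 libraries. It was lower in each library, by a log2 difference of -0.71 ± 0.20 (edgeR adjusted p = 0.00168), although without 37 °C replicate 2 the value was -0.48 and did not pass. Spred1 differed by -0.24 ± 0.06 (edgeR adjusted p = 3.68e-04) and Spred2 by -0.28 ± 0.09 (edgeR adjusted p = 0.00433), and both were lower in cycling cells of each library. Neither passed without 37 °C replicate 3 (-0.14 and -0.22). Dusp4 differed by -0.40 ± 0.16 (edgeR adjusted p = 0.0364), and it did not pass without 37 °C replicate 2 (-0.38), 3 (-0.27) or 4 (-0.18), with filterByExpr (-0.43) or by DESeq2 (-0.46). With G2M cells alone as cycling Spry1 passed too, at -0.60 (edgeR adjusted p = 0.0199), beside -0.13 ± 0.18 with S cells included. Without replicate 3 only Etv5 passed, so the count at 37 °C fell from 4 to 1.

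At 39 °C, where a library held 144 to 610 cycling cells, 6 of the 9 genes passed: Dusp5 and Dusp6 as higher in cycling cells and Spry1, Spred1, Spred2 and Etv4 as lower, beside 19.2% and 21.1% of tested genes. Dusp6 was at 32.7, 31.2, 33.4 and 32.6 CPM in G1 cells and at 36.6, 35.2, 52.0 and 45.8 CPM in cycling cells. It was higher in cycling cells of all 4 libraries, by a log2 difference of 0.41 ± 0.07 (edgeR adjusted p = 3.21e-08), and passed in all 14 alternatives. Spry1 was at 13.5, 7.36, 9.74 and 9.59 CPM in G1 cells and at 7.96, 4.08, 4.26 and 4.58 CPM in cycling cells. It was lower in cycling cells of all 4 libraries, by -0.98 ± 0.17 (edgeR adjusted p = 2.75e-08), but when the phases were scored in each library on its own the difference was -0.16 and did not pass. With G2M cells alone as cycling, 29 to 187 in a library, it was larger, at -2.43. The cycling values of Spry1 rest on few molecules, since 805 of its 879 UMIs at 39 °C were in G1 cells.

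The remaining differences at 39 °C were small and less steady. Dusp5 differed by 0.33 ± 0.14 (edgeR adjusted p = 0.0420), Spred1 by -0.19 ± 0.06 (edgeR adjusted p = 0.00777), Spred2 by -0.23 ± 0.08 (edgeR adjusted p = 0.0209) and Etv4 by -0.21 ± 0.08 (edgeR adjusted p = 0.0155). Each of these 4 lost its call without at least 1 of the 39 °C libraries. Dusp5 did not pass without replicate 1 (0.35), 2 (0.31) or 3 (0.26), Spred1 without replicate 3 (-0.13), Spred2 without replicate 4 (-0.22) and Etv4 without replicate 2 (-0.16) or 4 (-0.15). None of the 4 passed by DESeq2, and of them only Dusp5 passed when scaled by library totals only. Spred1 and Etv4 did not pass with phases scored in each library on its own. With G2M cells alone as cycling, Spred1 (-0.23), Etv4 (-0.01) and Dusp5 (0.05) did not pass.

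The difference between the cycling effects at the 2 temperatures passed for 2 of the 9 genes, beside 16.3% of tested genes in either direction. For Spry1 it was -0.84 ± 0.25 on the log2 scale (edgeR adjusted p = 0.00673) and for Dusp6 0.30 ± 0.11 (edgeR adjusted p = 0.0480). With phases scored per library that of Spry1 was 0.17, of the opposite sign, and with G2M cells alone it was -1.83. Under per-library phases neither gene passed and Dusp4 did (0.75, edgeR adjusted p = 3.29e-04). Dusp4 (0.32 ± 0.21, edgeR adjusted p = 0.340) also passed without 37 °C replicate 1 (0.68), and Etv4 (-0.31 ± 0.15, edgeR adjusted p = 0.157) without 39 °C replicate 3 (-0.43). By DESeq2 neither passed, with -0.78 for Spry1 (DESeq2 adjusted p = 0.140) and 0.34 for Dusp6 (DESeq2 adjusted p = 0.219). The Dusp6 value kept its sign in all 14 alternatives and did not pass in 8 of them, among them the fits without 37 °C replicate 1 (0.28), 2 (0.24) or 4 (0.27) and without 39 °C replicate 3 (0.20) or 4 (0.27).

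**Figure D3:**
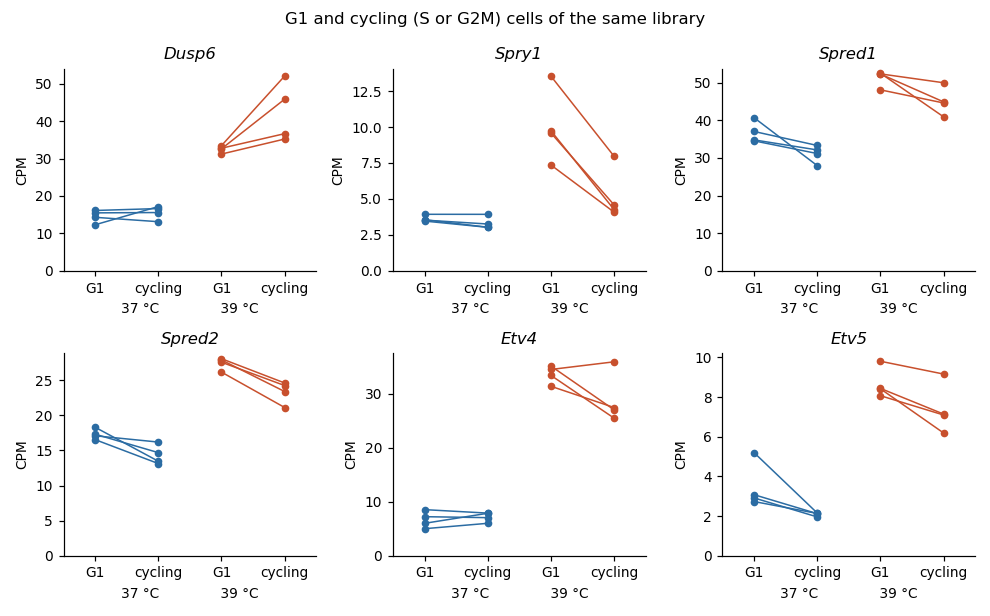
CPM in G1 cells and in cycling cells for 6 of the genes, each line joining both values of a library, at 37 °C (blue) and 39 °C (orange). Spry1 falls and Dusp6 climbs from G1 to cycling cells in all 4 libraries at 39 °C, and Spred1, Spred2 and Etv5 fall in all 8 libraries.

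Across single cells the genes were sparse. To make cells of different depth comparable, each was thinned to 2000 UMIs, leaving out 119 cells at 37 °C and 310 at 39 °C that had fewer. A UMI of Etv4 was then found in 1.18% ± 0.06 of cells per library at 37 °C and in 6.31% ± 0.43 at 39 °C (SD, n = 4), a UMI of Dusp6 in 2.96% ± 0.27 and 6.18% ± 0.60, and a UMI of Spred1 in 6.34% ± 0.47 and 9.48% ± 0.46. Spred2 was found in 2.68% and 4.91%, Dusp4 in 0.776% and 2.22%, Spry1 in 0.717% and 1.97%, Etv5 in 0.489% and 1.70% and Spry2 in 0.482% and 0.805% of cells. Dusp5 was found in 2.05% of cells at 37 °C and 1.59% at 39 °C. Without thinning the mean shares were 7.97% and 26.8% for Etv4, 16.6% and 26.9% for Dusp6, 32.0% and 38.6% for Spred1 and 11.5% and 7.40% for Dusp5. These shares repeat the direction of the sums and were not tested.

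**Figure D4:**
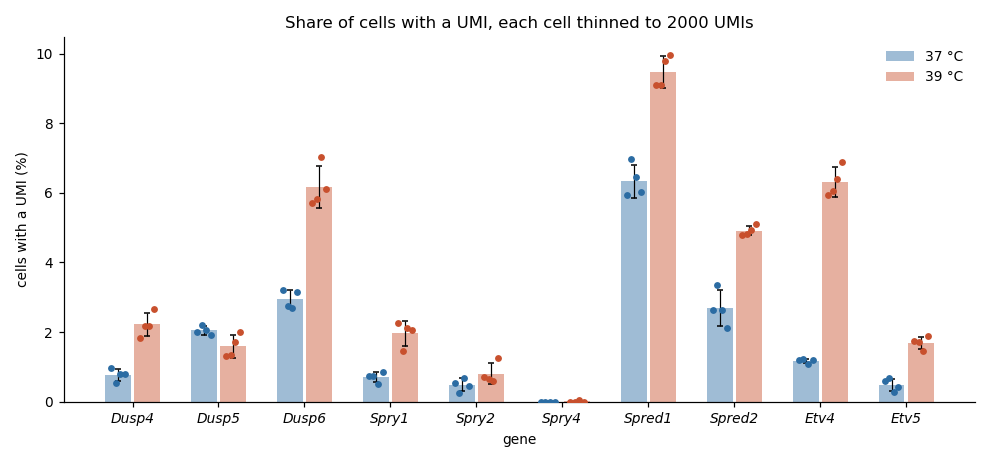
Share of cells with a UMI (%) for the 10 genes after thinning each cell to 2000 UMIs, at 37 °C (blue) and 39 °C (orange); bars are means of 4 libraries, points the libraries and whiskers the SD. Spred1 is found in the most cells at both temperatures, and Spry4 is at or near 0.

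At least 1 of the 10 genes was found in 16.3% ± 0.71 of thinned cells at 37 °C and in 29.6% ± 1.38 at 39 °C, and at least 2 in 1.33% ± 0.28 and 4.85% ± 0.82. Without thinning the shares with at least 1 were 60.4% and 74.7%. All cells are of 1 line, so no cell type that should lack these genes was at hand to give the level of free RNA. The variance of UMIs over their mean was between 0.953 and 1.24 for every tested gene and library, beside the 1 that random sampling of molecules gives. At so few UMIs per cell the ratio lies near 1 in most cases, so it cannot tell whether cells differ.

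Correlations between the genes from cell to cell were near 0 at this depth. Over the 36 pairs of the 9 tested genes the median within-library Pearson correlation, averaged over 4 libraries, was 0.0015 at 37 °C and 0.0080 at 39 °C. The highest means were 0.051 for Dusp6 with Etv4 at 37 °C (0.015 to 0.086 over the libraries) and 0.054 for Dusp6 with Spry2 at 39 °C (-0.020 to 0.178, so that 1 library carried much of the mean), and correlations this weak in sparse counts are given as a description. The other genes most like the summed UMIs of the 10 were Spp1 (mean r 0.071), Areg (0.062), Xist (0.052), Rrbp1 (0.046) and Nrp1 (0.045) of 2920 genes at 37 °C. At 39 °C they were Hmga2 (0.138), Spp1 (0.124), Rasa1 (0.092), Areg (0.087) and Fn1 (0.083) of 2889 genes, where the 99th percentile over all genes compared was 0.043. The points of each correlation share a library and a thinned depth.

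The rest of the pathway was counted from lists in the same fit over all cells, in which 31.5% of all tested genes passed as higher and 30.5% as lower, and genes are named by size of change among those that reached 5 CPM at either temperature. Among relatives of the 10 genes, 6 of 10 rose and 1 fell, and the named ones were Dusp16 (log2 fold change 0.59 ± 0.07), Dusp1 (0.56 ± 0.08) and Dusp7 (0.54 ± 0.05), all phosphatases of MAP kinases. Below 5 CPM, and named after their values were seen, Etv1, the third ETS factor of the Etv4 family, rose (1.17 ± 0.21) and Dusp9, another MAP kinase phosphatase, fell, with 0.211 to 0.421 CPM at 37 °C and at most 0.0771 CPM at 39 °C. Of 15 tested ligands 9 rose and 3 fell, and Fgf18 (2.13 ± 0.07), Fgf2 (2.09 ± 0.08) and Tgfa, a ligand of the EGF receptor (0.97 ± 0.09), rose. Fgf18 went from 11.8, 10.1, 8.97 and 9.65 CPM to 45.5, 45.2, 41.6 and 45.2 CPM, with no overlap. Of 11 tested receptors 5 rose and 1 fell, with Fgfr1 at 0.83 ± 0.04, Egfr at 0.73 ± 0.04 and Met at 0.58 ± 0.06.

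Between receptor and ERK, 7 of 20 adaptors, RAS genes and kinases rose and 8 fell, near the shares of all tested genes (31.5% and 30.5%). Gab1, an adaptor (0.59 ± 0.05), and the RAF kinase Araf (0.58 ± 0.04) were among those that rose. Of 11 other inhibitors 7 rose and 1 fell: Rasa2, which inactivates RAS (0.68 ± 0.05), and Errfi1, an inhibitor of the EGF receptor (0.64 ± 0.07), rose and Pebp1, an inhibitor of RAF (-0.69 ± 0.05), fell. Of 5 repressors of ERK target genes 2 rose, Etv3 (0.82 ± 0.07) and Cic itself (0.54 ± 0.05).

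Among genes downstream of ERK, 8 of 9 immediate-early genes rose and 1 fell, beside the same 31.5% and 30.5%, with Fos at 1.28 ± 0.14, Junb at 1.21 ± 0.06 and Fosb at 0.91 ± 0.17. Of 8 other output genes 6 rose and 2 fell. Fosl1, a partner of JUN proteins, rose by 1.30 ± 0.07 and Epha2, a receptor kinase, by 0.60 ± 0.06, and the growth regulator Myc fell (-0.75 ± 0.09). The median log2 fold change was 0.41 among relatives, 0.52 among ligands, -0.03 among receptors, 0.03 among adaptors, RAS genes and kinases, 0.52 among other inhibitors, 0.09 among repressors, 0.62 among immediate-early genes and 0.35 among other output genes.

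In G1 cells alone, where 24.8% of all tested genes passed as higher and 22.4% as lower, the counts of the lists were lower or the same but for the repressors. Of 9 immediate-early genes 6 rose and 1 fell, with a median log2 fold change of 0.36, and of 8 other output genes 5 rose and 1 fell, with a median of 0.27. Fos was at 0.89 ± 0.14, Junb at 0.94 ± 0.06 and Fosb at 0.65 ± 0.21, while Ier3, an early response gene named after its values were seen, was at 0.34 in all cells and at -0.20 ± 0.10 in G1 cells, where it did not pass (edgeR adjusted p = 0.0964). Of 10 relatives 4 rose and 1 fell, of 15 ligands 8 rose and 3 fell, and of 10 tested receptors 5 rose and 1 fell. Of 20 adaptors, RAS genes and kinases 5 rose and 4 fell, of 11 other inhibitors 7 rose and 1 fell, and of 5 repressors 3 rose. The median was 0.37 among receptors, above 0 where that in all cells was below it, with 1 gene fewer tested.

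**Figure D5:**
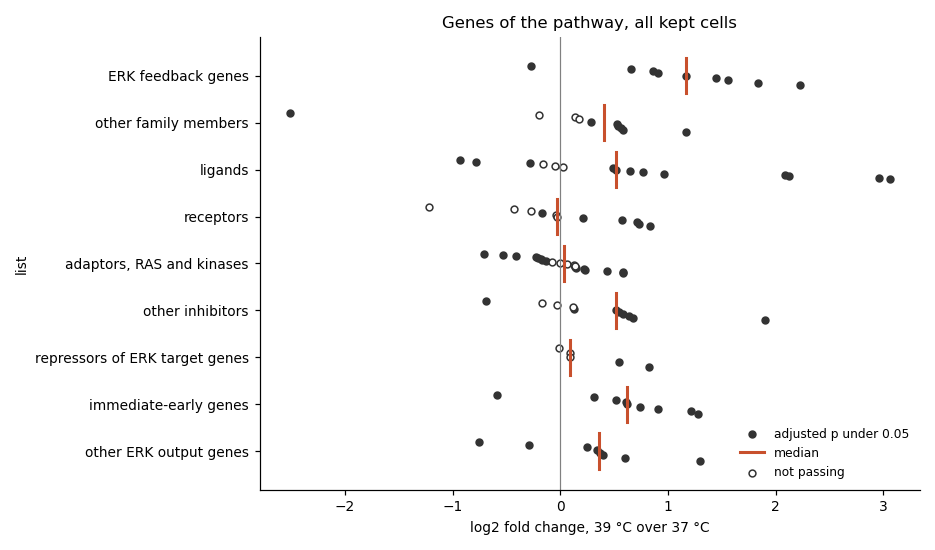
Log2 fold change of 39 °C over 37 °C in all kept cells for each tested gene of 9 lists; filled points passed at an adjusted p under 0.05 and orange lines are list medians. The ERK feedback genes have the highest median (1.16), and the adaptors, RAS genes and kinases spread on both sides of 0 (median 0.03).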

How the data were processed

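SN4741 cells were profiled with the Chromium Single Cell 3’ kit, and reads were aligned to mm10 by the authors with Cell Ranger 3.0.1. The deposited matrices hold raw UMI counts per gene and cell, with no normalization. The 10 genes and all lists were chosen with earlier results of these data known. Cells with over 15% mitochondrial UMIs, under 200 or over 6000 genes were left out (the last also stands in for doublet removal), keeping 18351 of 19125 cells. Phases came from Seurat 5.3.0 CellCycleScoring, with 42 of 43 S and 52 of 54 G2M genes found. Library sums of UMIs went into edgeR 4.0.16 (TMM, quasi-likelihood, leaving out genes averaging under 1 UMI a sum) in R 4.3.3, with temperature as the only term, and between phases with the library as a block. SE is the log2 fold change over the square root of F. Replicates of a group differed by more than sampling noise (over 12 pairs, a chi-square of 2.85 to 21.4 for each degree of freedom). Alternatives were other scalings and filters, DESeq2 1.42.0, a replicate block, thinned cells, other phase rules and leaving out each library. Named list genes were the 3 per list with the largest change among those passing and reaching 5 CPM at either temperature, and the genes most like the members were the 5 with the highest mean correlation among genes with a UMI in at least 10% of thinned cells. Of the named list genes, 1 is not reported here. Gene positions are from GENCODE and promoters from RefSeq. Reads of overlapping or near-identical genes cannot be told apart beyond what the authors' counting did.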

Additional observations from a re-analysis of the deposited data

Results flagged for a closer look

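Of 54 groups of 4 libraries, 8 had 1 library far from the other 3, by the gap to the nearest library over the whole range of the group, set against a critical value of 0.829. Chance gives about 5% of independent groups, but groups of the same gene share cells here, so the 2 shares are not strictly comparable. In all cells the libraries were 39 °C replicate 4 for Dusp5 (9.87 CPM, the others 7.43 to 7.68, ratio 0.898), 37 °C replicate 3 for Spry2 (2.98 CPM, the others 2.04 to 2.13, ratio 0.899) and 39 °C replicate 1 for Etv5 (9.65 CPM, the others 7.89 to 8.18, ratio 0.839). In G1 cells they were 39 °C replicate 4 for Dusp5 (9.78 CPM, the others 7.29 to 7.39, ratio 0.958), 37 °C replicate 3 for Spry1 (3.96 CPM, ratio 0.841), 39 °C replicate 1 for Spred1 (48.4 CPM, the others 52.4 to 52.9, ratio 0.876) and 37 °C replicate 2 for Etv5 (5.21 CPM, the others 2.73 to 3.10, ratio 0.850). In thinned cells it was 37 °C replicate 3 for Etv4, with a UMI in 1.09% of cells and the others at up to 1.22% (ratio 0.866).

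By edgeR's quasi-likelihood test the cycling effect differed between temperatures for Dusp6 (0.30 on the log2 scale) and Spry1 (-0.84). By DESeq2 neither passed. Dusp6 did not pass in 8 of the 14 alternatives, and Spry1 turned to 0.17 with phases scored per library.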

How the results depend on the processing

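The 8 genes that rose in all cells kept their direction and their call in all 18 alternatives, and the median log2 fold change of all tested genes stayed between 0.0003 and 0.05. Thinning cells to 2000 UMIs took the count of genes lower in all cells from 1 to 0. In G1 cells that count was 0, and 1 with phases scored per library, and it ran from 0 to 1 when each library was left out. The count differing between cycling and G1 cells at 37 °C was 4, and 1 to 4 when each library was left out. At 39 °C it was 6, but 3 with library totals only, 2 by DESeq2, 3 with phases scored per library and 3 with G2M cells alone as cycling. The count differing between temperatures was 2, but 0 by DESeq2, 1 with phases scored per library (Dusp4, neither of the 2), 1 with G2M cells alone and 1 to 2 when each library was left out, and not always for the same genes. The causes were not tested. The replicate numbers did not pair the libraries: same-numbered libraries correlated at -0.091, -0.077, -0.063 and 0.17, and only replicate 4 correlated best with its own number. With a replicate block 8 of the genes were higher and 1 lower in all cells, and 8 and 0 in G1 cells. Of the other pathway lists 68 genes (51 higher) passed in all cells in place of 67 (50 higher). In the main fit 31.5% of all tested genes passed as higher and 30.5% as lower.

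Signs turned mostly for log2 differences that had not passed. Cycling over G1 at 37 °C turned with G2M cells alone for Dusp6 (-0.0985), Spry2 (0.0081) and Dusp5 (-0.0413) and with phases scored per library for Spry2 (0.0576). When each library was left out it ran from -0.0126 to 0.164 for Dusp6, -0.328 to 0.088 for Spry2 and -0.0339 to 0.222 for Dusp5. At 39 °C Dusp4 turned with phases scored per library (0.139) and ran from -0.343 to 0.0233 when each library was left out. Spry2 turned there with RLE scaling (0.0087), library totals (0.044), filterByExpr (0.022), DESeq2 (0.0368) and phases scored per library (0.0852), and ran from -0.192 to 0.164. The difference between temperatures ran from -0.0538 to 0.109 for Spred1, -0.0896 to 0.326 for Spry2 and -0.0062 to 0.112 for Spred2 when each library was left out. It turned for Spry2 with G2M cells alone (-0.092) and for Spry1, which had passed, with phases scored per library (0.174).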
